A study of Homo sapiens with 6 samples.

Results

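Genes of sterol and fatty acid synthesis were followed in HEK293T cells that overexpressed ATF6. They were 33 gene symbols chosen by name, out of 37993 symbols in the deposited count table. There were 7 mevalonate enzymes, 11 sterol enzymes, 5 regulators of the SREBP pathway, 2 genes of sterol transport and 8 genes of fatty acid synthesis. HEK293T is an easily transfected line of human embryonic kidney origin. The libraries came from cells given ATF6 with the missense change M67V, the nonsense change N267star, a deletion of exons labelled ex2-3del or one labelled ex8-14del, from cells given ATF6 labelled WT, and from a control labelled non-transfected. Transfection was by lipofection, and the growth protocol of all samples also names an empty vector, so it is not settled whether the control saw reagent and vector. The header of a second deposited count table, not used here, has a number where the label WT would stand, and which construct WT was is not given in the sources used here.

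Each group held 1 library, so every difference given here is between single libraries and was not tested against the spread between cultures. Library totals lay between 16023926 and 16813314 counts. The lowest count of any of the 33 genes in any library was 184, and all 33 passed the expression filter, a mean of at least 1 CPM (the count scaled to library size) over the 6 libraries. Intervals in brackets are exact 95% intervals for counting error only, and copies made by PCR would make them too narrow. A gene was counted as higher or lower when 2 libraries differed by at least 1.5-fold and the interval excluded equality. In the marker check, the neuronal filament genes NEFL, NEFM and INA, which HEK293 cells are known to express, made up most of a sum with PAX2 and LHX1. This sum lay between 295.4 and 315.9 CPM. PAX2 alone stood at only 1.77 to 2.90 CPM and LHX1 at 2.71 to 3.46 CPM. Of 7 markers of other cell types, CDH5 and TYR had no count in any library, and the fibroblast collagen COL1A1 stood at 27.3 to 35.2 CPM. ATF6 itself stood at 1493 CPM in M67V, 713 CPM with N267star, 1349 CPM with ex2-3del, 2410 CPM with ex8-14del and 1148 CPM in WT, against 85.1 CPM in non-transfected cells.

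Cholesterol and fatty acids are built from acetyl-CoA by enzymes that the SREBP transcription factors switch on together when membrane sterol is low. The SREBP precursors sit in the ER membrane with their escort SCAP, are held there by INSIG proteins when sterol is plentiful, and are otherwise carried to the Golgi and cut by the site-1 and site-2 proteases. The same proteases release the active part of ATF6, the ER stress sensor that drives chaperone genes such as HSPA5. HMGCS1, the cytosolic synthase that makes HMG-CoA, stands near the start of the mevalonate branch, so its level can be set against the enzymes that follow it.

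The promoters of the 4 genes that met the criterion in both the M67V and the WT libraries against non-transfected cells are shown, because these genes carry the result. The sequences are from RefSeq on GRCh38.p14 and run from 250 bases before to 50 bases after the gene start, on the strand of the gene. Where the table holds several starts (2 for HMGCS1 and 3 for IDI1), the one nearest a principal GENCODE transcript start is printed. Capitals mark CCAAT and its reverse complement.
HMGCS1, chr5:43313363-43313662, minus strand: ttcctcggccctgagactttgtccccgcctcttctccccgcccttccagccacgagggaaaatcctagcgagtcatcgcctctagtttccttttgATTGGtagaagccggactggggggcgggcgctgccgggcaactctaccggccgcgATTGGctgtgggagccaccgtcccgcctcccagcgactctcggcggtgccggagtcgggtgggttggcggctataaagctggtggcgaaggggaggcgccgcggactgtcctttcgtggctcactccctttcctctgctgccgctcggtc
IDI1, chr10:1048837-1049136, minus strand: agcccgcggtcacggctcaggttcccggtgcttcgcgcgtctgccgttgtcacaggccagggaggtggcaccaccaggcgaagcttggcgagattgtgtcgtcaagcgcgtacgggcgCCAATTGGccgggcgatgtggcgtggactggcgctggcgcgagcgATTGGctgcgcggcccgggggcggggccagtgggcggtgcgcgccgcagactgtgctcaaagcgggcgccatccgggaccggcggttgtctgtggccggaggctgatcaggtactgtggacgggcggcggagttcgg
NSDHL, chrX:152830813-152831112, plus strand: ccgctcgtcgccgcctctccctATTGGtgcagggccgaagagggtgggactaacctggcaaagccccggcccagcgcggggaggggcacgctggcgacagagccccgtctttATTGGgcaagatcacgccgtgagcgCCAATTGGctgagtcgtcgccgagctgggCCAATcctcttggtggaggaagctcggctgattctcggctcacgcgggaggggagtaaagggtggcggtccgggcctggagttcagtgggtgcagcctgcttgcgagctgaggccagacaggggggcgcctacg
STARD4, chr5:111512486-111512785, minus strand: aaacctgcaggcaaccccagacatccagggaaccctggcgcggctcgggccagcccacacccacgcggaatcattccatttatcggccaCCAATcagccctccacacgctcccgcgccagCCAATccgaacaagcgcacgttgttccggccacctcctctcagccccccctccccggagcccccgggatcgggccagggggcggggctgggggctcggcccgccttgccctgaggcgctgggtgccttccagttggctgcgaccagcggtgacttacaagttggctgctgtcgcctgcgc

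Within these windows CCAAT occurred 2 times for HMGCS1, 3 times for IDI1, 5 times for NSDHL and 2 times for STARD4, counting both strands and the overlapping pair in CCAATTGG. CCAAT was present in 25 of 40 windows of the 29 genes found in the promoter table (62.5%), against 34.6% of all 35116 windows of the same length. CCAAT also stood in windows of genes that did not meet the criterion in any comparison, such as FDPS, LSS, MVK and SREBF2. Several windows belong to 1 gene, and some of them overlap. The longer ER stress element ERSE was in none of the 40 windows and in 0.0769% of all windows, and its variant ERSE-II was in none and in 0.0541%. The ATF6 motif TGACGTGG was found in 1 member window, that of a second INSIG2 start, and in 0.729% of all windows. The sterol element was searched only in the form TCACNCCAC. This form was found in 1 member window, that of SREBF2, and in 1.13% of all windows. All motifs were searched on both strands, and a match or its absence describes only the letters in these windows.

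Among the mevalonate enzymes, HMGCS1 differed most between libraries. Its level was 439.5 CPM (429.3 to 450.0) in M67V, 115.8 CPM (110.7 to 121.1) with N267star, 106.9 CPM (102.0 to 111.9) with ex2-3del, 203.9 CPM (197.1 to 210.8) with ex8-14del and 573.9 CPM (562.2 to 585.8) in WT, against 103.0 CPM (98.1 to 108.0) in non-transfected cells. The WT and M67V libraries were highest, ex8-14del was intermediate, and the counting intervals of ex2-3del and non-transfected cells overlapped. Against non-transfected cells HMGCS1 was 5.57-fold higher in WT, 4.26-fold higher in M67V and 1.98-fold higher in ex8-14del. Its log2 ratios were 0.17 (0.07 to 0.26) in N267star and 0.05 (-0.04 to 0.15) in ex2-3del. No expressed gene overlaps HMGCS1 in the annotations used.

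IDI1, the isomerase that interconverts the isoprene units IPP and DMAPP, followed with a smaller difference. IDI1 stood at 210.8 CPM in M67V, 107.9 CPM with N267star, 94.3 CPM with ex2-3del, 114.4 CPM with ex8-14del and 248.1 CPM in WT, against 94.8 CPM in non-transfected cells. It was 2.62-fold higher in WT and 2.22-fold higher in M67V, and its log2 ratio was 0.27 (0.17 to 0.37) in ex8-14del, below the criterion. IDI1 overlaps the expressed gene WDR37 in RefSeq, though not in GENCODE, and reads of the 2 genes may have been shared. WDR37 held 24.1 CPM in WT and 28.7 CPM in non-transfected cells. The part of shared reads in the IDI1 level was not tested.

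The other 5 mevalonate enzymes did not reach 1.5-fold in any comparison with non-transfected cells. MVD, the decarboxylase that forms IPP, was at 52.1 CPM in M67V, 34.1 CPM with N267star, 34.2 CPM with ex2-3del, 47.9 CPM with ex8-14del and 47.4 CPM in WT, against 35.5 CPM in non-transfected cells. Its log2 ratio was 0.55 (0.40 to 0.71) in M67V, just below the criterion, 0.42 (0.26 to 0.58) in WT and 0.43 (0.28 to 0.59) in ex8-14del. MVD thus stood about equally high in ex8-14del and WT, with a log2 ratio of ex8-14del to WT of 0.01 (-0.13 to 0.16). ACAT2, the cytosolic thiolase that makes acetoacetyl-CoA, was at 0.41 in M67V, 0.36 in WT and 0.33 in ex8-14del on the log2 ratio scale, and its exons overlap those of TCP1. MVK, mevalonate kinase, had its highest level in ex8-14del, 31.8 CPM, against 22.3 CPM in WT and 25.1 CPM in non-transfected cells. Reads of MVK and the overlapping gene MMAB may also have been shared. PMVK, the next kinase, and FDPS, farnesyl diphosphate synthase, had log2 ratios to non-transfected cells between -0.13 and 0.11 in all 5 libraries.

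**Figure D1:**
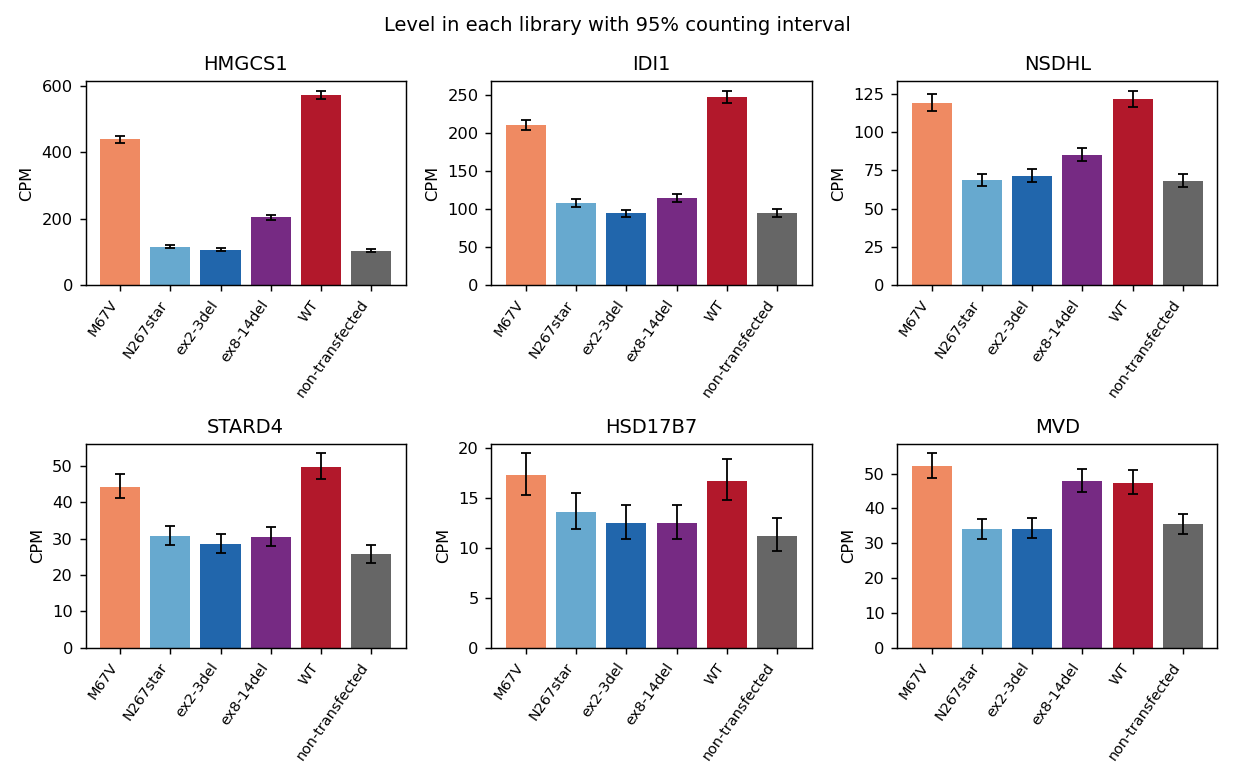
Level in CPM of HMGCS1, IDI1, NSDHL, STARD4, HSD17B7 and MVD in each of the 6 libraries. Bars are single libraries and error bars are 95% Poisson intervals of the count. HMGCS1 reaches 573.9 CPM in WT and 439.5 CPM in M67V, and 203.9 CPM in ex8-14del.

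Among the 11 sterol enzymes, NSDHL, which removes the C4 methyl groups of sterols together with MSMO1 and HSD17B7, differed most. NSDHL stood at 119.5 CPM in M67V, 68.7 CPM with N267star, 71.7 CPM with ex2-3del, 85.4 CPM with ex8-14del and 121.7 CPM in WT, against 68.4 CPM in non-transfected cells. It was 1.74-fold higher in M67V and 1.78-fold higher in WT. In ex8-14del its log2 ratio was 0.32 (0.21 to 0.43). The level in ex8-14del lay between those of WT and non-transfected cells, as for HMGCS1.

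The 2 partners of NSDHL in C4 demethylation lay close to the criterion. HSD17B7, the 3-ketosterol reductase, was at 17.3 CPM in M67V, 13.6 CPM with N267star, 12.5 CPM with ex2-3del, 12.5 CPM with ex8-14del and 16.7 CPM in WT, against 11.2 CPM in non-transfected cells. Its log2 ratio of 0.62 (0.35 to 0.90) in M67V was just inside the criterion, but just outside it when libraries were scaled by their totals. In WT it was 0.57 (0.30 to 0.86), just outside. MSMO1, the C4-methylsterol oxidase, stood at log2 ratios of 0.46 (0.30 to 0.62) in M67V, 0.34 (0.17 to 0.50) in ex8-14del and 0.50 (0.34 to 0.67) in WT.

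SQLE, the squalene epoxidase and a rate-limiting step of sterol synthesis, was at 240.2 CPM in M67V, 221.5 CPM with N267star, 204.9 CPM with ex2-3del, 215.3 CPM with ex8-14del and 265.3 CPM in WT, against 193.3 CPM in non-transfected cells. The highest log2 ratio of SQLE was 0.46 (0.39 to 0.52) in WT. Its interval lay above equality in all 5 comparisons with non-transfected cells, as did those of ACAT2, EBP and SC5D. These comparisons share the same control library. FDFT1, squalene synthase, had log2 ratios of 0.21 in M67V, 0.21 in ex8-14del and 0.17 in WT. EBP, the sterol isomerase, had its highest ratio in ex8-14del, 0.30 (0.19 to 0.40). The other 5 enzymes, LSS, CYP51A1, TM7SF2, SC5D and DHCR7, had log2 ratios between -0.19 and 0.21 in every comparison with non-transfected cells. CYP51A1, the lanosterol demethylase, was highest in N267star, at 115.4 CPM, and lowest in M67V, at 98.5 CPM.

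The SREBP regulators differed little. SREBF2, which encodes the SREBP that mainly drives sterol genes, was at 215.0 CPM in M67V, 201.4 CPM with N267star, 204.0 CPM with ex2-3del, 211.8 CPM with ex8-14del and 193.9 CPM in WT, against 212.9 CPM in non-transfected cells. WT was the lowest of the 6 for SREBF2, with a log2 ratio of -0.13 (-0.21 to -0.06). SREBF1, whose products favour fatty acid genes, had ratios between -0.19 in N267star and -0.03 in ex2-3del, and its exons overlap those of RAI1. SCAP lay between -0.07 and 0.03. INSIG2 lay between -0.12 and 0.16. INSIG1, the ER retention factor that is itself an SREBP target, was the only regulator with an interval above equality in all 5 comparisons. These 5 comparisons share the control library. INSIG1 stood at 225.6 CPM in M67V, 221.6 CPM with N267star, 210.6 CPM with ex2-3del, 216.8 CPM with ex8-14del and 240.1 CPM in WT, against 194.2 CPM in non-transfected cells, and its highest log2 ratio was 0.31 (0.24 to 0.37) in WT. Messenger levels of these genes do not measure cleavage of the SREBP proteins.

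Of the 2 transport genes, STARD4, a soluble carrier of cholesterol between membranes, met the criterion and NPC1, the lysosomal cholesterol exporter, did not. STARD4 was at 44.3 CPM in M67V, 30.8 CPM with N267star, 28.5 CPM with ex2-3del, 30.5 CPM with ex8-14del and 49.9 CPM in WT, against 25.7 CPM in non-transfected cells. STARD4 was 1.72-fold higher in M67V and 1.94-fold higher in WT, and N267star and ex8-14del had ratios of 0.26 (0.07 to 0.45) and 0.25 (0.06 to 0.44) on the log2 scale. NPC1 lay between 0.03 and 0.13.

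The 8 fatty acid genes lay close to equality in every comparison, and none reached 1.5-fold. Of genes not yet described as sharing reads, FDPS, TM7SF2, NPC1, ACSS2, FADS1 and FADS2 also overlap an expressed gene. FASN, fatty acid synthase, was at 1110 CPM in M67V, 988.3 CPM with N267star, 1033 CPM with ex2-3del, 981.4 CPM with ex8-14del and 1066 CPM in WT, against 1141 CPM in non-transfected cells. Non-transfected cells had the highest FASN level of the 6 libraries, and the log2 ratios ran from -0.22 (-0.25 to -0.19) in ex8-14del to -0.04 (-0.07 to -0.01) in M67V. SCD, the stearoyl-CoA desaturase, stood slightly above equality in WT (0.15, 0.12 to 0.18) and M67V (0.12, 0.09 to 0.16). ACLY, which supplies cytosolic acetyl-CoA from citrate, lay between -0.07 and -0.03. ACSS2, which makes acetyl-CoA from acetate, had its highest ratio in ex8-14del, 0.19. ACACA, acetyl-CoA carboxylase, the elongase ELOVL6 and the desaturases FADS1 and FADS2 lay between -0.12 and 0.16.

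**Figure D2:**
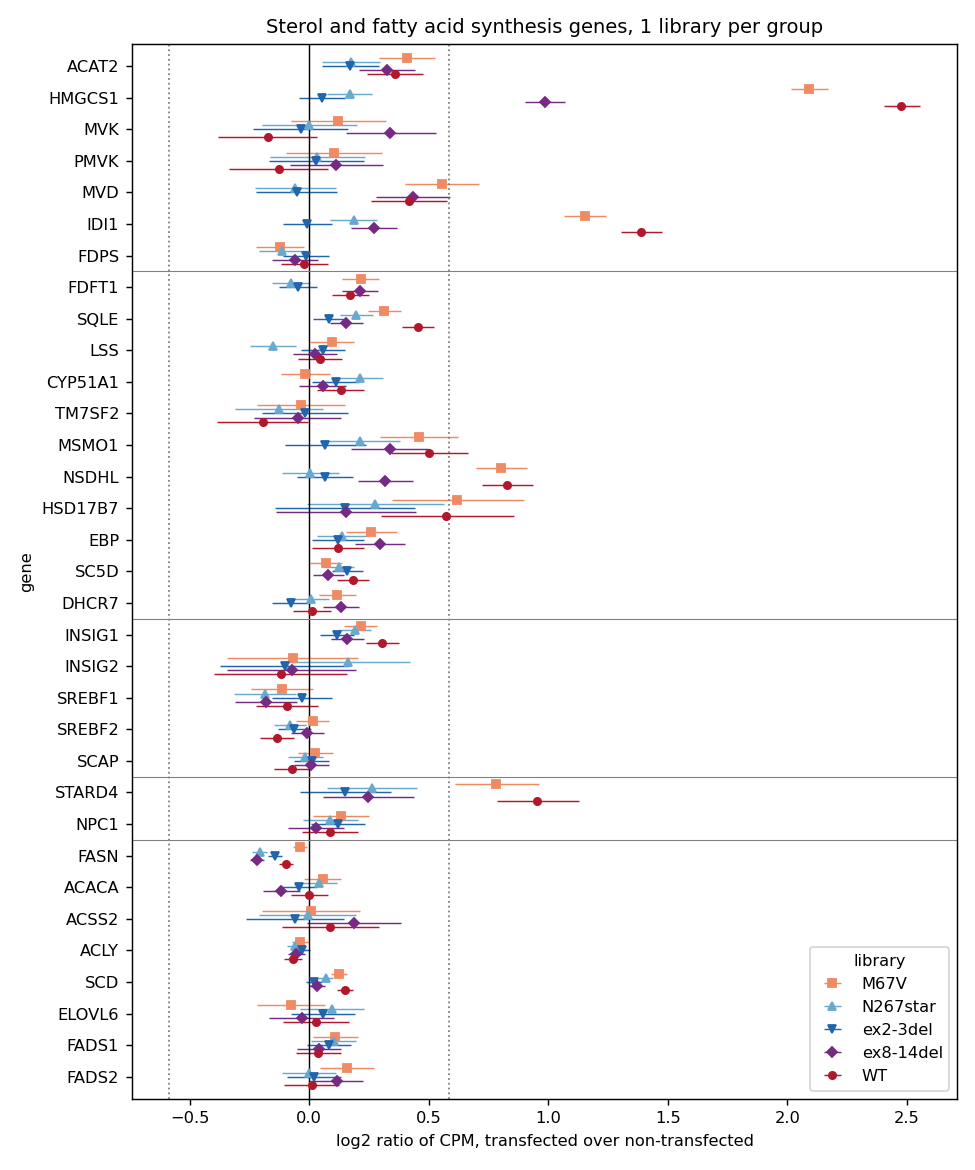
Log2 ratio of CPM to the non-transfected library (x axis) for the 33 genes (y axis), in blocks of mevalonate, sterol, regulator, transport and fatty acid genes from top to bottom. Points are single libraries, bars are exact 95% counting intervals, and dotted lines mark 1.5-fold. HMGCS1 has the highest ratio of the 33 genes in WT (2.48), M67V (2.09) and ex8-14del (0.98), with IDI1 next in WT (1.39) and M67V (1.15), and the fatty acid genes lie between -0.22 and 0.19.

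Over the whole list, genes that met the criterion against non-transfected cells were found in WT, M67V and ex8-14del. In WT, 4 of the 33 genes were at least 1.5-fold higher than in non-transfected cells (HMGCS1, IDI1, NSDHL and STARD4), where 1.71% of the 13006 genes tested were, and 0 were lower, where 0.746% were. In M67V, 5 were higher (the same 4 and HSD17B7), where 1.95% of all genes were, and 0 were lower, where 0.569% were. In ex8-14del, HMGCS1 alone was higher, 1 of 33, against 0.6% of all genes. In N267star and ex2-3del none of the 33 was, against 0.384% and 0.531% of all genes. In these last 3 libraries none of the 33 was lower either, where 0.684% of all genes were in ex8-14del, 0.677% in N267star and 0.523% in ex2-3del. The median log2 ratio of the 33 genes was 0.12 in M67V, 0.04 in N267star, 0.02 in ex2-3del, 0.11 in ex8-14del and 0.09 in WT. For all genes tested the median lay between -0.01 and 0.00 in these 5 comparisons, which share the control library.

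Smaller shifts above equality were common among the sterol genes. Of the 17 mevalonate and sterol enzymes other than HMGCS1, the counting interval lay above equality for 12 in M67V, 7 in N267star, 5 in ex2-3del, 11 in ex8-14del and 11 in WT. Among all genes tested that share was 10.4%, 13.8%, 9.2%, 11.2% and 14.5% in the same order. Such intervals are narrower for abundant genes, and among genes with a mean of at least 20 CPM the shares were 12.4%, 18.8%, 11.7%, 14.8% and 18.3%. Of the same 17 enzymes, the interval lay below equality for 1 in M67V, 2 in N267star, 0 in ex2-3del, 0 in ex8-14del and 1 in WT. Among all genes tested the share below equality was 8.1%, 13.8%, 10.4%, 10.7% and 15.2% in that order. Summed over the 17 enzymes, the level was 1863 CPM in M67V, 1595 CPM with N267star, 1578 CPM with ex2-3del, 1704 CPM with ex8-14del and 1913 CPM in WT, against 1524 CPM in non-transfected cells. The sum was thus 1.26 times that of non-transfected cells in WT, 1.22 times in M67V and 1.12 times in ex8-14del. Without IDI1 these ratios were 1.16, 1.16 and 1.11.

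Whether HMGCS1 moved with its pathway was asked by setting it against these 17 enzymes. In WT the log2 ratio of HMGCS1 to non-transfected cells was 2.48, the median of the 17 was 0.17 and their highest value was 1.39, for IDI1. In M67V the values were 2.09 for HMGCS1, 0.21 for the median and 1.15 for IDI1. In ex8-14del HMGCS1 stood at 0.98, the median at 0.16 and the highest of the 17 at 0.43, for MVD. In none of these 3 comparisons did any of the 17 exceed HMGCS1. In N267star 6 of the 17 had a larger absolute ratio than HMGCS1, and in ex2-3del 10 did. HMGCS1 therefore exceeded the pathway median by 1.88 in M67V, 0.83 in ex8-14del and 2.31 in WT, by 0.14 in N267star, with a difference of -0.003 in ex2-3del.

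The share of HMGCS1 within the pathway does not depend on how libraries are scaled. HMGCS1 made up 19.1% (18.7 to 19.5) of the counts of the 18 enzymes in M67V, 6.77% (6.48 to 7.07) in N267star, 6.34% (6.06 to 6.63) in ex2-3del, 10.7% (10.4 to 11.0) in ex8-14del and 23.1% (22.7 to 23.5) in WT, against 6.33% (6.04 to 6.63) in non-transfected cells. The shares in N267star, ex2-3del and non-transfected cells lay close together. Their exact binomial intervals overlap, which does not show that these shares were equal. In the other 3 libraries the share was higher by more than counting error.

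**Figure D3:**
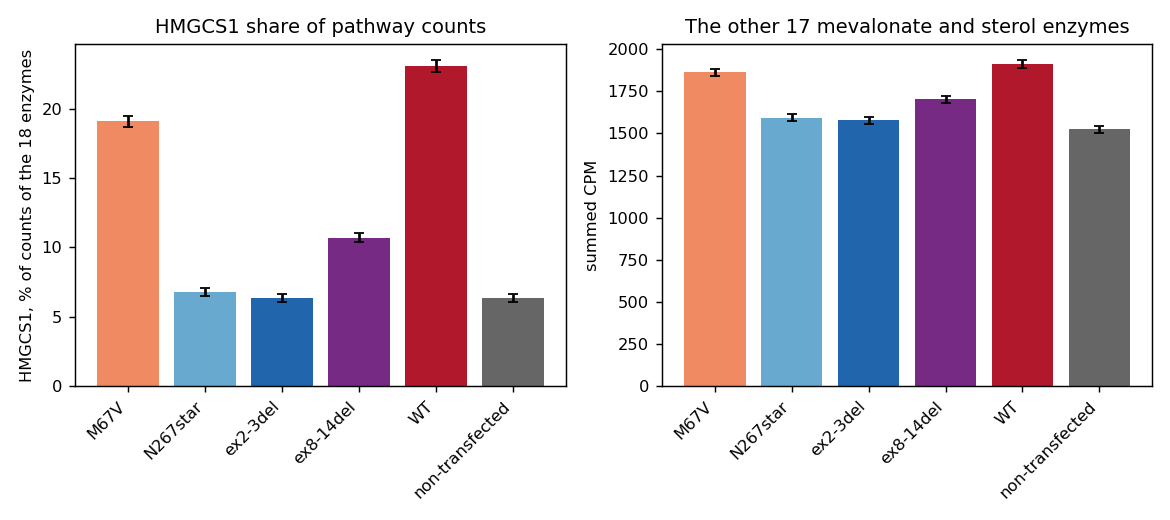
Left, HMGCS1 as a percentage of the counts of the 18 mevalonate and sterol enzymes in each library, with exact 95% binomial intervals. Right, summed CPM of the other 17 enzymes with 95% Poisson intervals. The share runs from 6.33% in non-transfected cells to 23.1% in WT, while the sum of the others runs from 1524 to 1913 CPM.

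Set against WT, HMGCS1 was lower in all 4 mutant libraries, by at least 1.5-fold in 3 of them. M67V had 0.766 times the WT level of HMGCS1 (log2 ratio -0.38, -0.43 to -0.34), and none of the 33 genes was 1.5-fold higher or lower, where 0.554% and 0.392% of all genes were. IDI1 was also lower in M67V than in WT, at -0.23 on the log2 scale, while 10 of the 17 other enzymes had ratios above 0. In N267star 4 genes were at least 1.5-fold lower than in WT (HMGCS1, IDI1, NSDHL and STARD4), where 1.75% of all genes were. In ex2-3del 4 were, the same 4, where 1.61% of all genes were. In ex8-14del 3 were (HMGCS1, IDI1 and STARD4), where 1.57% of all genes were. None of the 33 was 1.5-fold higher than in WT in these 3 libraries, against 0.454%, 0.623% and 0.569% of all genes. HMGCS1 stood at 0.355 times the WT level in ex8-14del, 0.202 times in N267star and 0.186 times in ex2-3del.

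Among the 33 genes, the ex8-14del library differed from N267star and from ex2-3del most in HMGCS1. HMGCS1 was 1.76-fold higher in ex8-14del than in N267star (log2 ratio 0.82, 0.74 to 0.90) and 1.91-fold higher than in ex2-3del (0.93, 0.85 to 1.01). MVD followed, with log2 ratios of 0.49 (0.34 to 0.65) and 0.48 (0.33 to 0.64). These 2 comparisons were added after the levels had been seen. The ex8-14del library also had the highest ATF6 count, whose part in the HMGCS1 level was not tested. HSPA5, the ER chaperone BiP and an established ATF6 target, was 1.33-fold higher in ex8-14del than in non-transfected cells, against 1.98-fold for HMGCS1, while in WT HSPA5 was 6.50-fold and HMGCS1 5.57-fold higher.

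The genes whose pattern over the 6 libraries was most like that of HMGCS1 were looked up among all genes. The measure was the root mean square difference between log2 CPM values, each centred on its own mean over the 6 libraries, among 11185 genes with a mean of at least 5 CPM. The 5 nearest genes outside the list, the best matches of a far larger number than the 33, were HSP90B1 (0.28), an ER chaperone, TSPYL2 (0.30), CRELD1 (0.33), HSPA5 (0.33) and CDK2AP2 (0.33). The nearest of the 33 genes were IDI1, at rank 30 of 11185 with 0.46, NSDHL at rank 65 with 0.65 and STARD4 at rank 76 with 0.67. SREBF2 was at 1.01. Of the 5 nearest genes, TSPYL2 came closest to HMGCS1 in ex8-14del, with 185.9 CPM there and 330.7 CPM in WT, against 111.5 CPM in non-transfected cells. The measure favours genes with a change of like size, and all genes share the same 6 libraries, so it describes these libraries only.

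**Figure D4:**
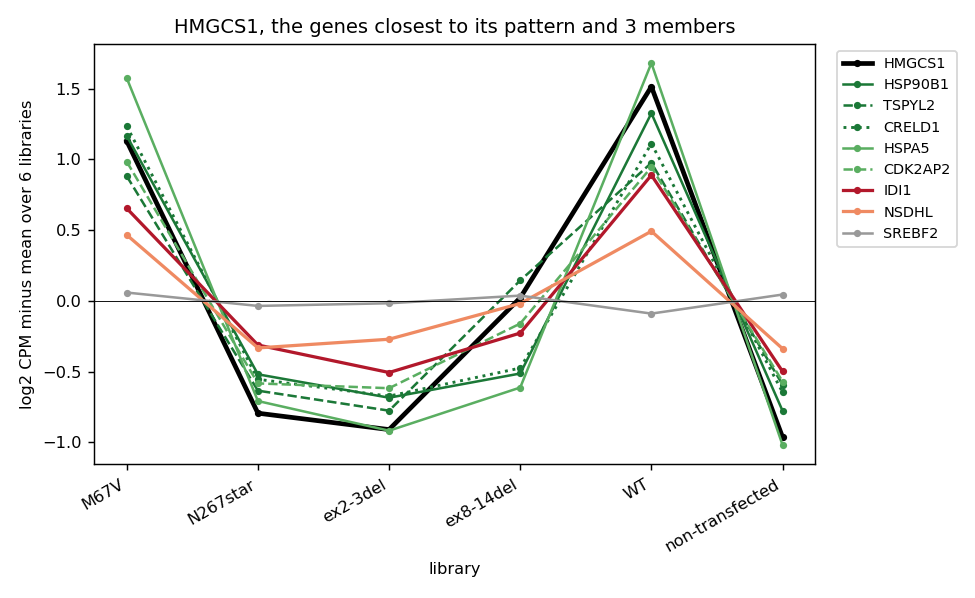
Log2 CPM minus its mean over the 6 libraries (y axis) in each library (x axis), for HMGCS1, the 5 genes outside the list closest to its pattern, and IDI1, NSDHL and SREBF2. HMGCS1 lies above HSP90B1 and HSPA5 in ex8-14del and near TSPYL2 there, while IDI1 and NSDHL span a narrower range and SREBF2 stays near 0.

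Of 62 genes in 7 further lists of sterol, isoprenoid and fatty acid metabolism, 60 passed the expression filter and 2 met the 1.5-fold criterion, in either direction, in any of the 9 comparisons. Of the 13006 genes tested, 893 did (6.87%). STARD5, a sterol carrier related to STARD4, was at 14.3 CPM in M67V, 6.68 CPM with N267star, 5.08 CPM with ex2-3del, 7.85 CPM with ex8-14del and 14.2 CPM in WT, against 6.78 CPM in non-transfected cells. It was higher than in non-transfected cells in M67V (log2 ratio 1.06) and WT (1.05). Its exons overlap those of IL16, which stood at 3.47 CPM in M67V and 2.71 CPM in WT, against 1.83 CPM in non-transfected cells. FAXDC2, a gene related to sterol C4 oxidases, was at 11.9 CPM in M67V, 2.25 CPM with N267star, 30.4 CPM with ex2-3del, 28.3 CPM with ex8-14del and 1.76 CPM in WT, against 19.3 CPM in non-transfected cells. FAXDC2 was at least 1.5-fold lower than in non-transfected cells in M67V, N267star and WT, and higher in ex2-3del. Its exons overlap those of the more abundant gene CNOT8 in GENCODE, while no overlap was found in RefSeq. CNOT8 lay between 51.9 CPM in M67V and 59.6 CPM with N267star, with 56.5 CPM in WT and 53.7 CPM in non-transfected cells. The part of shared reads in the FAXDC2 count was not tested, so that count is uncertain. The mitochondrial HMG-CoA genes, the LXR and efflux genes, the SREBP proteases and their partners, the isoprenoid branch genes and the further fatty acid genes had no member that met the criterion.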

How the data were processed

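Total RNA from 6 HEK293T samples was sequenced, 1 library per genotype label. The deposited table holds expected counts per gene symbol, estimated by the authors from their reads. The submitters' processing notes name GRCh37.p13 and DESeq without a version; aligner, counting program and strand setting were not given in the sources used here. Without strand, reads of overlapping genes cannot be told apart, and 10 of the 33 genes overlap another expressed gene.

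A value of 0.028, taken as a placeholder for genes without reads, was set to 0, these expected counts were rounded to whole numbers, 28 rows whose names had become dates were left out, and rows sharing a symbol were summed. A second table with 6 per-sample columns was not used. TMM factors (edgeR 4.0.16, R 4.3.3) lay between 0.985 and 1.01. Log2 ratios used a prior count of 2, with Clopper-Pearson intervals of the 2 counts. Intervals were computed in scipy 1.17.1 with pandas 2.3.3, numpy 2.4.6 and Python 3.11.15, and plots in matplotlib 3.10.9. The steps were tested on simulated Poisson counts, which hold counting error only. That test therefore could not cover differences between cultures, copies made by PCR or shared reads. Alternatives were library totals, DESeq2 1.42.0 size factors, prior count, filter, fold and overlap.

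The genes, lists, motifs and the rule for naming genes (all 33 members, called genes of the further lists, the 5 nearest patterns to HMGCS1, ATF6 and HSPA5) were chosen with earlier results of these data known. The annotation used for overlaps and promoters is GRCh38, a different build from the GRCh37.p13 named by the submitters. The printed promoter coordinates are therefore not those of the build named for the counts. Promoter entries for ACAT2, FASN, FDFT1 and SQLE were not used here.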

Additional observations from a re-analysis of the deposited data

How the results depend on the processing

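With a criterion of 2-fold in place of 1.5-fold, the number of genes higher than in non-transfected cells was 2 in M67V, 0 in ex8-14del and 2 in WT, and the number lower than in WT was 2 in N267star and 2 in ex2-3del. Fewer genes can pass by construction. The shares of all genes at 2-fold were 0.846%, 0.238% and 0.823% for the first 3 and 0.753%, 0.677% and 0.7% for the last 3. With the 6 other mevalonate enzymes in place of 17 enzymes as the pathway, HMGCS1 exceeded the median by 0.69 in ex8-14del against non-transfected cells and the difference in M67V against WT was -0.48. With library totals, 4 genes in place of 5 were higher in M67V than in non-transfected cells, HSD17B7 being lost. Without the 10 overlapping genes, IDI1 among them, 4 were higher in M67V and 3 in WT, and 3, 3 and 2 were lower than WT in N267star, ex2-3del and ex8-14del. That setting moved the N267star difference between HMGCS1 and the pathway median to 0.09, against 0.14 with all 17 enzymes. DESeq2 size factors, a prior count of 0.5 and a filter at 5 CPM or none changed no count of genes that met the criterion. No ratio changed sign among genes that met the criterion. Another scaling or prior count moved the HMGCS1 log2 ratio by at most 0.032. Among the other 32 genes 1 ratio left its interval, that of FASN in M67V against non-transfected cells, which was -0.07 with library totals. No paired analysis was possible because each group holds 1 library. Leaving out a library was not possible for the same reason. At this depth the intervals cover counting error, and differences between cultures of 1 condition are unknown.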
